A study of Homo sapiens with 30 samples.

Results

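HCT116 cells that had been exposed to 10 μM Omomyc for 24 h were compared with cells exposed to the same dose for 6 h, with 3 RNA-Seq libraries at each time. These 6 libraries are those the labels title with this line, dose and times, out of 30 libraries in the series, and 14920 of the 57992 genes in the deposited table had a mean of at least 0.5 RPKM (reads scaled by transcript length and by the number of mapped reads) over them. HCT116 is an established human colon carcinoma line, and Omomyc is a MYC-derived bHLHZip miniprotein, given to these cells as purified protein with the transfection reagent ProteoJuice. By the methods, this mix was applied in Opti-MEM, and medium with 10% fetal bovine serum was added for incubations longer than 4 h. Time with Omomyc, time with the reagent and time since serum was added therefore cannot be told apart. The later time is 24 h in the titles and in the methods of the study, although a time tag on those libraries says 4 h. Levels are also given for 3 untreated HCT116 libraries, for which the sources used here do not say whether ProteoJuice was added or when they were harvested, for 6 libraries at the lower dose at 6 and 24 h, labelled 2 μM but 2.5 μM in the methods, and for 6 libraries of Ramos cells, a Burkitt lymphoma line, at 2.5 μM Omomyc and the same times. Nothing in the labels says that the replicates came from separate cultures, so p-values measure the spread between these libraries.

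MYC dimerizes with MAX and binds E box sequences in promoters, where it promotes transcription of genes for growth and division. Omomyc, which lacks a transactivation domain, can pair with itself, with MAX or with MYC, and as a homodimer or with MAX it occupies E boxes. The comparison asks how the transcriptome of cells that already carry Omomyc moves between an early and a late time. Immediate early genes, a class that cells switch on within minutes of a stimulus or a stress without new protein synthesis and then switch off, and the replication-dependent histone genes, which are transcribed in S phase from clustered genes without introns, take up much of what follows.

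One library stood apart. The RPKM of 6 h replicate 3 summed to 1051041, against 791845 and 795720 in the other 6 h libraries and 659047 to 729627 at 24 h. The 7SL RNA gene RN7SL1, part of the signal recognition particle, was at 207392 RPKM in that library, against 85222 and 75521 RPKM in the other 6 h libraries and 39699.5 to 57656 RPKM at 24 h. The correlation of log2(RPKM + 0.5) across genes was 0.967 and 0.971 between 6 h replicate 3 and its fellow replicates, 0.990 between those, and 0.990 to 0.992 among the 24 h libraries. When genes were split by exon length into 10 equal classes, the class of the longest genes had a median log2 difference of -0.27 between 6 h replicate 3 and the other 6 h libraries, and the class of the shortest genes had one of 0.07. For this reason every count was also taken without that library. Of the 15 colon epithelial markers, 10 passed the filter on low values, and their keratin and adhesion genes were high, with means of 692 RPKM for KRT8 and 167 RPKM for EPCAM over the 6 libraries. CDX1 was listed at 0, and VIL1, LGALS4, CDH17 and GPA33 had at most 0.113 RPKM. The summed level of the 13 B cell markers was 2.93 to 5.43 RPKM at 6 h and 5.04 to 6.37 RPKM at 24 h, with MS4A1 and BLK at 0, and that of the 11 fibroblast markers was 5.38 to 6.82 and 4.40 to 5.78 RPKM, with DCN, LUM, FAP and POSTN at 0.

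**Figure D1:**
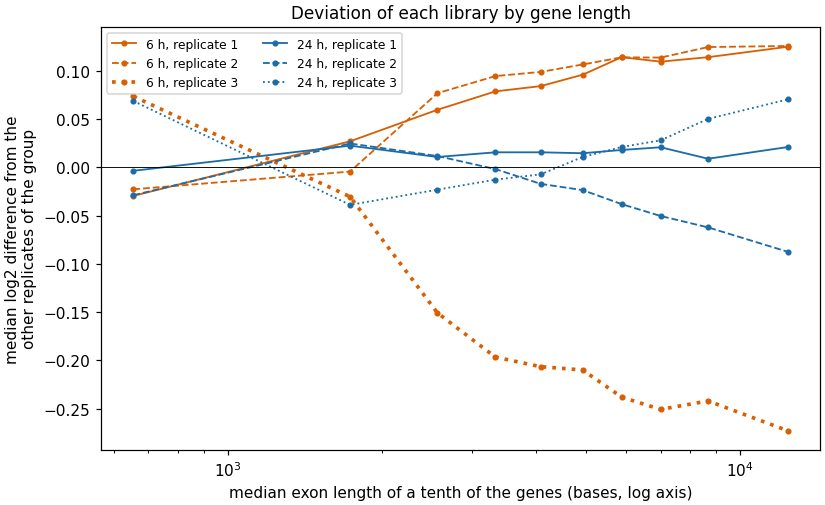
Median log2 difference of each library from the other 2 replicates of its group (y axis), for 10 classes of genes ordered by exon length (x axis, median length in bases on a log axis), at 6 h (orange) and 24 h (blue). Replicate 3 at 6 h, the thick dotted line, runs from 0.07 in the shortest class to -0.27 in the longest, and the other 5 lines end between -0.09 and 0.13.

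Between 6 and 24 h, 1173 genes or 7.86% of the 14920 tested passed an adjusted p of 0.05 (limma on log2(RPKM + 0.5), Benjamini-Hochberg), 865 of them (5.8%) higher at 24 h and 308 (2.06%) lower. A change of at least 1 on the log2 scale was reached by 98 of the higher and 140 of the lower genes. The 3 libraries at 24 h did not overlap with the 3 at 6 h for 5700 genes or 38.2%, a share that includes all 1173 called genes. For a single gene, the two-sided exact permutation test of 3 libraries against 3 cannot give a p below 0.1. The balance of higher and lower calls rested on the scale. The median log2 difference over all genes was 0.15, and after median-ratio scaling, which set it to -0.01, 971 genes were called with 410 higher and 561 lower. When the RPKM sums of the libraries were set equal the median was 0.42, and 1396 genes were called higher and 119 lower. List medians are therefore set beside 0.15, but each test, and each gene said to rise or fall, is against 0. Without 6 h replicate 3, 3506 of 14936 genes (23.5%) were called, 2514 higher (16.8%) and 992 lower (6.64%). These held 1169 of the 1173 genes, all 1169 with the same sign, which their lack of overlap had fixed beforehand. Leaving out 24 h replicate 1, 2 or 3 instead left 171, 161 or 195 calls, and leaving out 6 h replicate 1 left 439. In a bulk sample, fewer cells that express a gene and less RNA per cell cannot be told apart.

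The falls were led by immediate early genes. Of 30 listed, 29 passed the filter on low values (EGR4 did not), and 24 fell between 6 and 24 h, 0 rose and 5 did not pass the test, with a median log2 difference of -2.02 against 0.15 for all genes tested. All 24 h libraries were below all 6 h libraries for 25 of the 29, where 38.2% of all genes tested did not overlap in either direction. The count was 20 to 25 with any 1 library left out, 24 with median-ratio or quantile scaling and 19 with equal sums. The list holds the 2 secreted matricellular proteins CYR61 and CTGF beside transcription factors and mRNA-binding regulators.

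CYR61 (now CCN1), an integrin-binding matricellular protein, was at 107, 149.9 and 103 RPKM in the 3 libraries at 6 h and at 2.69, 2.96 and 2.87 RPKM at 24 h. Every 24 h library was also below the untreated libraries, which had 4.43 to 4.6 RPKM. The log2 difference was -5.15 (standard error 0.156, adjusted p = 5.89e-06), a 35.6-fold fall on the log2(RPKM + 0.5) scale. CTGF (now CCN2), its close relative in the same family, had 18.1, 28.0 and 22.9 RPKM at 6 h and 0.441, 0.426 and 0.435 RPKM at 24 h. The 24 h values of CTGF were under the constant of 0.5 added before the logarithm, so its log2 difference of -4.63 (standard error 0.169, adjusted p = 9.15e-06) understates the ratio of the RPKM values.

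The AP-1 genes encode the FOS and JUN leucine zipper proteins that pair to bind AP-1 sites. FOSB fell from 41.6, 35.9 and 30.7 RPKM to 2.82, 1.81 and 1.31 RPKM (log2 difference -3.92, standard error 0.222, adjusted p = 9.23e-05). FOSB and ERCC1 overlap on opposite strands, and whether the counting used strand is not given in the sources used here. FOS fell from 76.0, 89.1 and 72.4 RPKM to 7.73, 8.45 and 9.26 RPKM (-3.15, standard error 0.125, adjusted p = 1.08e-05). In the untreated cells FOS had 98.4 to 115 RPKM, above all 6 treated libraries, whereas FOSB had 15.3 to 18.5 RPKM, between the values at the 2 times. JUN fell from 51.5, 52.4 and 35.5 RPKM to 5.79, 5.41 and 6.02 RPKM (-2.89, standard error 0.162, adjusted p = 9.23e-05), and its level in untreated cells was 7.24 to 8.18 RPKM. The lowest 6 h value of both FOSB and JUN was that of replicate 3. FOSL1, JUNB, JUND and FOSL2 fell as well, with log2 differences of -1.85, -1.15, -0.99 and -0.94.

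The EGR genes encode zinc finger factors, and the NR4A genes encode orphan nuclear receptors. EGR1 was at 79.4, 59.8 and 77.3 RPKM at 6 h and at 4.47, 3.71 and 4.75 RPKM at 24 h, with 20.3 to 21.8 RPKM in untreated cells. Its log2 difference was -3.91 (standard error 0.148, adjusted p = 9.52e-06). EGR3 fell by 2.97 and EGR2 by 2.43 on the log2 scale. NR4A1 fell from 78.8, 60.0 and 49.8 RPKM to 6.30, 5.71 and 4.61 RPKM (-3.38, standard error 0.185, adjusted p = 8.61e-05), where untreated cells had 5.34 to 7.28 RPKM and overlapped with the 24 h libraries. NR4A2 and NR4A3 had log2 differences of -2.81 and -2.66. ATF3, a stress-induced bZIP factor, fell from 45.4, 48.3 and 50.5 RPKM to 4.45, 5.04 and 5.21 RPKM (-3.17, standard error 0.112, adjusted p = 9.15e-06), below the 7.61 to 7.81 RPKM of untreated cells. SRF, the factor that binds CArG boxes in the promoters of many of these genes, fell by 1.36. The 5 members that did not pass the test, MAFK, KLF10, KLF2, IER5 and BTG2, had log2 differences between -0.23 and 0.19.

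**Figure D2:**
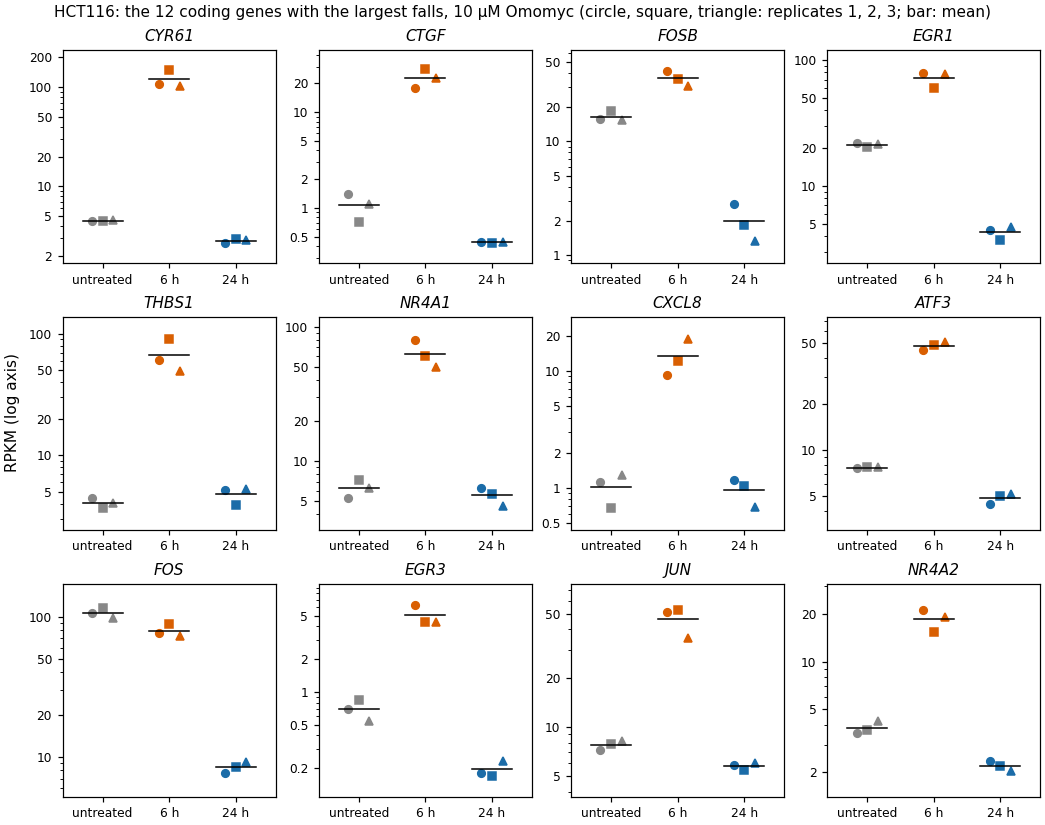
RPKM on log axes of the 12 protein-coding genes with the largest falls from 6 to 24 h, in untreated HCT116 cells (grey) and after 6 h (orange) or 24 h (blue) with 10 μM Omomyc. Each marker is 1 library and each bar the mean of 3, and in every panel the 24 h libraries lie below the 6 h libraries, with FOS the panel in which the untreated cells are highest.

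The promoter of EGR1 shows the sequence to which SRF is known to bind. The 250 bases before the start of EGR1 in RefSeq (GRCh38.p14, chr5:138465229-138465478, plus strand) are given with CArG boxes in capitals, which begin 105 and 83 bases before the start.

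EGR1: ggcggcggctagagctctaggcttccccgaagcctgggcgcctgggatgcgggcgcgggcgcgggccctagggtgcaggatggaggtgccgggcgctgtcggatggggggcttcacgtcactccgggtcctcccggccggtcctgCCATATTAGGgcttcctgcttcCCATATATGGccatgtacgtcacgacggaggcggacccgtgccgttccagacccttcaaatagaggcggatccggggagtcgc

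A CArG box (CC, 6 bases of A or T, GG, read on either strand) was found in 3 of the 22 immediate early genes with an entry in the promoter table, EGR1, EGR2 and SRF, or 13.6%, against 1.44% of 27305 genes with an entry. The cAMP response element TGACGTCA was found in 2 of the 22 (9.09%, against 2.03% of all), the E box CACGTG in 5 (22.7%, against 7.73%), and the AP-1 site TGACTCA in 0, against 5.19% of all. Other lists held some of these too, the ATF4 synthesis and MYC network lists the E box in 4 of 14 each (28.6%), and the histone genes the cAMP response element in 7 of 43 (16.3%). These are exact letters within 250 bases, and sites farther away or with a variant letter are not seen.

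YAP and TEAD are the coactivator and DNA-binding factor at the end of the Hippo pathway, which responds to cell contact and stretch. Of 22 YAP/TEAD target genes 16 passed the filter, and 7 fell and 0 rose (median -0.28), or 9 without 6 h replicate 3. CYR61 and CTGF belong to both this list and the last. The others were NUAK2, which fell by 1.78 (adjusted p = 0.00182) from 6.70, 4.57 and 4.42 RPKM to 1.02, 1.12 and 1.3 RPKM, GADD45B, F3, AMOTL2 and FJX1, with log2 differences of -1.38, -1.36, -1.32 and -0.76. The 9 members that did not pass, among them AXL, LATS2 and AMOTL1, lay between -0.32 and 0.26. THBS1, which encodes the matricellular protein thrombospondin 1, fell from 60.3, 90.3 and 49.7 RPKM to 5.19, 3.90 and 5.31 RPKM (-3.63, standard error 0.219, adjusted p = 0.00013). The promoter of CTGF holds GGAATG, the core of the TEAD site, 3 times in its 250 bases (GRCh38.p14, chr6:131951373-131951622, minus strand, in capitals).

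CTGF (CCN2): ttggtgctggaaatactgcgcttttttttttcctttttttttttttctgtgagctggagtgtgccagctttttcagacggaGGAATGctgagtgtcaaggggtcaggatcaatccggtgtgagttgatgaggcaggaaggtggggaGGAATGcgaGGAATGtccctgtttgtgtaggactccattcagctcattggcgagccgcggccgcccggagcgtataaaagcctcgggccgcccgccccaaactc

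GGAATG on either strand was found in 6 of the 13 YAP/TEAD targets with an entry (46.2%), in 3 of 8 WNT targets (37.5%) and in 14.3% of all genes with an entry, and it was searched for after the promoters had been read.

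Genes that respond to ERK signaling moved both ways. Of 25 tested, 10 fell and 2 rose, with a median of -0.39, with 14 and 2 without 6 h replicate 3 and 5 and 0 without any 1 of the 24 h libraries. DUSP5, a nuclear phosphatase of ERK, fell from 118, 126 and 104 RPKM to 27.1, 25.9 and 25.1 RPKM (-2.13, standard error 0.112, adjusted p = 7.81e-05), below the 28.8 to 30.7 RPKM of untreated cells. The EGF receptor ligand AREG fell from 526, 595 and 559 RPKM to 207, 213 and 209 RPKM (-1.41, standard error 0.118, adjusted p = 0.000697), and its relative EREG had a log2 difference of -1.13. The 2 that rose were the ETS factors ETV1 (0.77, adjusted p = 0.00652) and ETV5 (0.62, adjusted p = 0.0171). ETV1 had 7.80, 7.56 and 7.91 RPKM at 6 h, 13.4, 13.2 and 14.1 RPKM at 24 h and 20.1 to 20.9 RPKM in untreated cells. The ERK list shares FOSL1 and IER3 with the immediate early list.

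Among 18 measured NF-κB target and feedback genes, 7 fell and 0 rose (median -0.36), or 9 fell and 2 rose without 6 h replicate 3. The neutrophil chemokine CXCL8 fell from 9.28, 12.2 and 19.0 RPKM to 1.17, 1.03 and 0.688 RPKM (-3.21, standard error 0.254, adjusted p = 0.000531), and here 6 h replicate 3 was the highest library. CXCL2, the NF-κB subunit RELB and the ubiquitin-editing enzyme TNFAIP3 had log2 differences of -1.82, -1.62 and -1.35. CD274, which encodes the checkpoint ligand PD-L1 and is in the same list, had 1.65, 1.60 and 1.03 RPKM at 6 h and 1.04, 1.11 and 1.91 RPKM at 24 h, and the groups overlapped (log2 difference -0.07, adjusted p = 0.868, 95% interval -0.60 to 0.46).

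Among 16 measured BMP and TGF-β targets, 1 rose and 1 fell, and 2 rose and 3 fell without 6 h replicate 3. ID1, an HLH inhibitor of differentiation, rose from 47.0, 50.8 and 41.8 RPKM to 87.7, 102 and 86.1 RPKM (0.97, standard error 0.124, adjusted p = 0.00476). Both times were below the 264 to 274 RPKM of untreated cells. ID3, another member of the ID family, had 21.3, 21.2 and 21.8 RPKM at 6 h, 16.7, 20.9 and 18.2 RPKM at 24 h and 83.4 to 91.3 RPKM in untreated cells. Its log2 difference of -0.20 between the times did not pass the test (adjusted p = 0.286). Equal sums turned it to 0.10.

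Among the rises, DBP was first. DBP, a PAR bZIP factor with a circadian rhythm in many tissues, rose from 3.61, 3.46 and 3.27 RPKM to 16.7, 19.9 and 17.8 RPKM (2.23, standard error 0.119, adjusted p = 7.81e-05), a 4.70-fold rise. All 24 h libraries were above the untreated libraries, which had 14.6 to 16.4 RPKM. DDIT4 (REDD1), an inhibitor of mTORC1, rose from 14.9, 11.4 and 10.6 RPKM to 53.9, 62.0 and 52.9 RPKM (2.16, standard error 0.146, adjusted p = 0.000248), still below the 70.6 to 88.6 RPKM of untreated cells. ALDOC, a glycolytic aldolase, rose from 8.93, 7.91 and 5.52 RPKM to 30.8, 39.6 and 25.7 RPKM (2.04, standard error 0.208, adjusted p = 0.00178), above the 19.6 to 21.7 RPKM of untreated cells. CDKN1C (p57), a CDK inhibitor, rose from 1.69, 2.15 and 1.23 RPKM to 4.77, 4.78 and 5.15 RPKM (1.32, adjusted p = 0.00563). EPHB3, an ephrin receptor and WNT target, rose by 1.3 (adjusted p = 0.00814). For CCNG2, an atypical cyclin, 6 h replicate 3 was the high library, at 3.12 RPKM against 1.29 and 1.39 RPKM, and its rise was 1.26 with that library and 1.59 without. AC022826.2, which overlaps STAU2 and UBE2W on the same strand, had 2.16, 1.5 and 0.375 RPKM at 6 h and 3.17, 5.84 and 5.81 RPKM at 24 h (1.66, adjusted p = 0.0434), and its reads could belong to either neighbour.

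**Figure D3:**
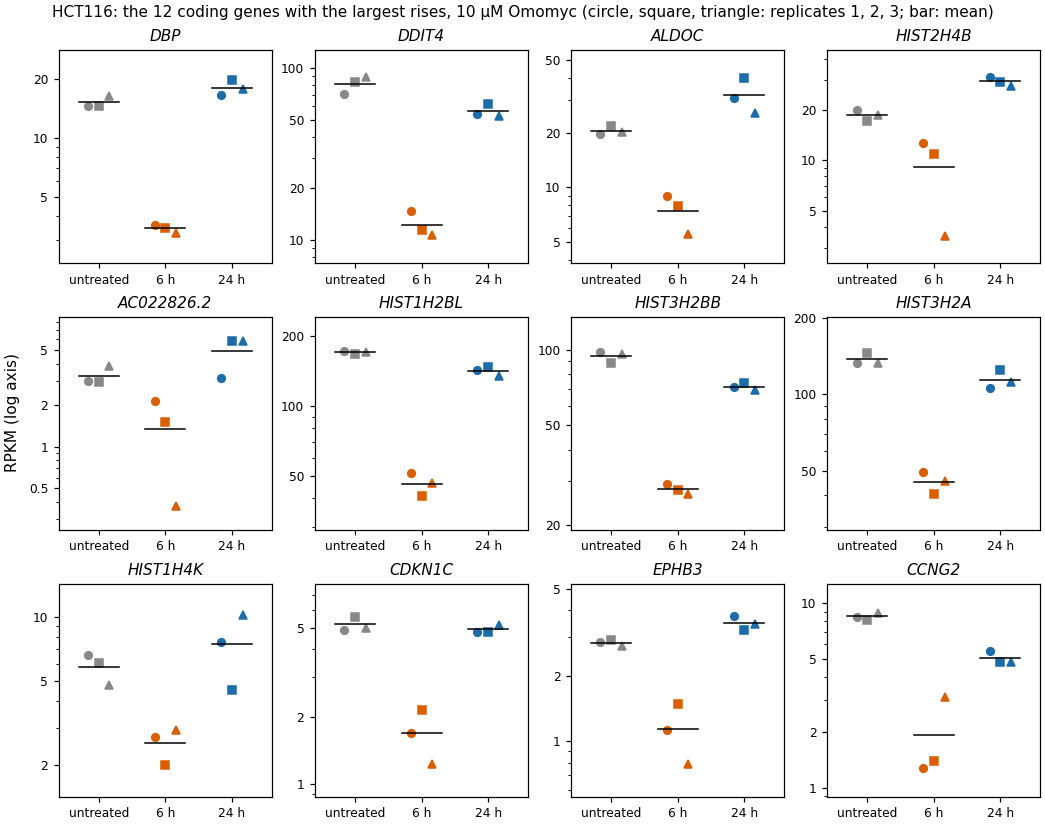
RPKM on log axes of the 12 protein-coding genes with the largest rises from 6 to 24 h, in untreated HCT116 cells (grey) and after 6 h (orange) or 24 h (blue) with 10 μM Omomyc. Each marker is 1 library and each bar the mean of 3, the 24 h libraries lie above the 6 h libraries in every panel, and the triangle of 6 h replicate 3 is well below its fellows in HIST2H4B and AC022826.2 and above them in CCNG2.

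The replication-dependent histone genes rose together. Of 69 listed, 50 passed the filter on low values, and 45 rose, 0 fell and 5 did not pass the test, with a median of 0.99. The 5 were at 0.34 to 1.0. All 24 h libraries were above all 6 h libraries for 49 of the 50, against 38.2% of all genes tested without overlap in either direction. Without 6 h replicate 3, 47 rose, and 41 to 48 rose under the scalings. Without 24 h replicate 1, 2 or 3 the count was 29, 29 or 33. The 69 genes summed to 7729 to 8492 RPKM at 6 h, 15856 to 16478 RPKM at 24 h and 18383 to 18774 RPKM in untreated cells, so the sums did not overlap between any of these groups. The log2 mean of untreated cells was nearer to 24 h than to 6 h for 48 of the 50. This held for 66.8% of all genes tested and for 92.3% of the 865 genes called higher, so it is not particular to histones. These mRNAs end in a stem-loop and carry no poly(A) tail, and the libraries were made from rRNA-depleted total RNA.

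The largest rises came from several clusters. HIST1H2BL (now H2BC13), an H2B gene of the large cluster on chromosome 6, rose from 51.7, 41.0 and 46.5 RPKM to 143, 147 and 135 RPKM (1.60, standard error 0.12, adjusted p = 0.000411). HIST3H2BB and HIST3H2A, which lie side by side on chromosome 1 and encode H2B and H2A, rose by 1.35 and 1.34 (adjusted p = 0.000411 and 0.0011). HIST1H4K, an H4 gene, had 2.72, 2.00 and 2.94 RPKM at 6 h and 7.63, 4.53 and 10.1 RPKM at 24 h (1.32, adjusted p = 0.0274). HIST2H4B had the largest value in the list, from 12.7, 10.9 and 3.55 RPKM to 31.3, 29.4 and 27.8 RPKM (1.82, standard error 0.386, adjusted p = 0.0314), and 1.29 without 6 h replicate 3, its low library. HIST2H4A and HIST2H4B are near-identical copies between which reads can be split, and HIST2H4A rose by 1.14. At the lower dose HIST2H4B went the other way, from a mean of 13.5 to 6.94 RPKM.

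The promoter of HIST1H2BL (RefSeq, GRCh38.p14, chr6:27807930-27808179, minus strand) holds CCAAT, the site of NF-Y, 4 times on either strand (CCAAT or its reverse complement, in capitals).

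HIST1H2BL (H2BC13): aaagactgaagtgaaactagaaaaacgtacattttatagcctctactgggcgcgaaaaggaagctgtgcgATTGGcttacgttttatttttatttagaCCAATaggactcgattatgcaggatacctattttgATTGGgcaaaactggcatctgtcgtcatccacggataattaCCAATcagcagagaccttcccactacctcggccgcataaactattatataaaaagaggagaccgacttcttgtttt

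CCAAT was found in 34 of the 43 histone genes with an entry (79.1%), in 37 of the 47 mitosis genes described next (78.7%), and in 37.0% of all genes with an entry. Lists with few rises or with changes both ways held it too, sterol genes in 16 of 18 (88.9%), ATF4 stress regulators in 11 of 15 (73.3%), polyamine genes in 9 of 13 (69.2%) and DNA replication genes in 27 of 43 (62.8%). It was searched for after the promoters had been read.

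Genes of mitosis rose too. Of 54 listed and measured, 27 rose and 0 fell, with a median of 0.51. All 24 h libraries were above all 6 h libraries for 45, where 38.2% of all genes tested did not overlap either way. The rises were 42 without 6 h replicate 3, 31 with equal sums and 15 with median-ratio scaling. The test rested on the full set of 24 h libraries, for 2, 3 and 3 genes passed without 24 h replicate 1, 2 or 3, 14 without 6 h replicate 1 and 0 fell in any of these. CDC25C, the phosphatase that activates CDK1, rose from 5.57, 5.67 and 3.16 RPKM to 11.9, 12.7 and 10.8 RPKM (1.25, standard error 0.207, adjusted p = 0.0143). TOP2A, the topoisomerase that untangles chromosomes, rose from 32.0, 34.9 and 26.8 RPKM to 67.8, 65.0 and 65.3 RPKM (1.08, standard error 0.123, adjusted p = 0.00307), and untreated cells had 78.5 to 81.1 RPKM. CDCA3 rose by 0.95, the kinesin KIF20A by 0.90 and the checkpoint kinase TTK by 0.88. Members without a call included PLK1 (0.40), CCNB1 (0.22), MKI67 (0.23) and FOXM1 (0.12). The promoter of TOP2A has 4 CCAAT matches in its 250 bases (GRCh38.p14, chr17:40417897-40418146, minus strand, in capitals).

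TOP2A: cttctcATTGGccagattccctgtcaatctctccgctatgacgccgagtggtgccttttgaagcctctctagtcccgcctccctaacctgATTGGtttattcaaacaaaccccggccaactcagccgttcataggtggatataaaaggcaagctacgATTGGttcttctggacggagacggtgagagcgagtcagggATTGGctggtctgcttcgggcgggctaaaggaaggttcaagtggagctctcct

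DNA replication genes lay near all genes tested. Of 52 measured, 2 rose and 0 fell, where 5.8% and 2.06% of all genes tested did. Their median was 0.18 against 0.15 for all genes. The 2 were the primase subunits PRIM1 (0.46, adjusted p = 0.032) and PRIM2 (0.45, adjusted p = 0.0433), and neither passed the test after median-ratio scaling. PRIM1 had 32.7, 34.6 and 33.1 RPKM at 6 h and 45.1, 47.4 and 46.1 RPKM at 24 h. CCNE1 and CDC6 were at -0.01 and 0.01, and PCNA at 0.27. Without 6 h replicate 3, 10 members rose and 2 fell, where 16.8% and 6.64% of all genes did.

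**Figure D4:**
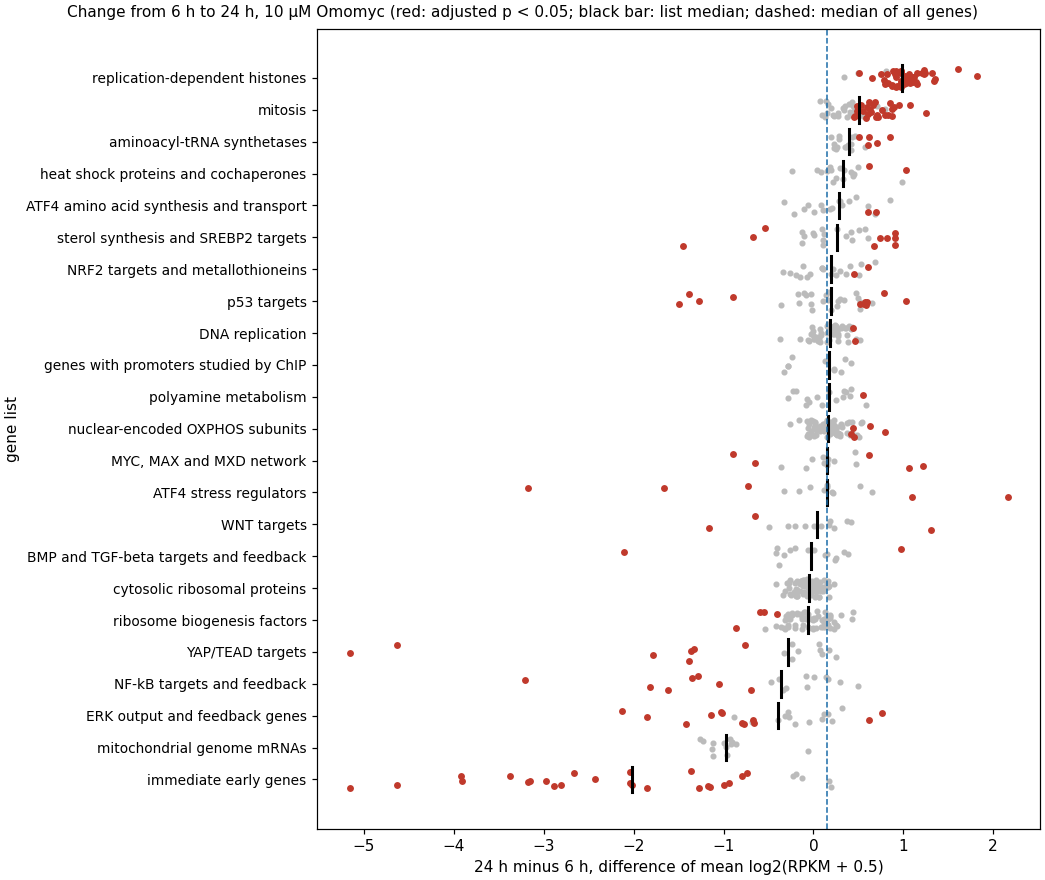
Difference of mean log2(RPKM + 0.5) between 24 and 6 h (x axis) for the measured members of each gene list (y axis). Each point is a gene, red where it passed an adjusted p of 0.05, black bars are list medians, and the dashed line is the median of 0.15 over all genes tested. Histones and mitosis genes lie to the right, and immediate early genes spread from -5.15 to 0.19 on the left.

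The MYC network itself changed in several members. MYC had 171, 169 and 118 RPKM at 6 h and 97.7, 93.2 and 96.7 RPKM at 24 h (-0.65, standard error 0.159, adjusted p = 0.0446), and -0.83 without 6 h replicate 3. Untreated cells had 115 to 124 RPKM, above all 24 h libraries and overlapping with 6 h. With equal sums the MYC difference was -0.34 and did not pass (adjusted p = 0.31). MNT, a MAX-binding repressor, fell from 9.19, 8.75 and 6.92 RPKM to 4.27, 3.65 and 4.72 RPKM (-0.90, adjusted p = 0.016). MXD3 and MXD4, repressors that pair with MAX, rose by 1.22 (adjusted p = 0.00245) and 0.61 (adjusted p = 0.042), and MYCL, the MYC relative, rose by 1.06 (adjusted p = 0.0281). MXD3 had 7.15, 8.62 and 6.43 RPKM at 6 h, 17.4, 17.1 and 19.0 RPKM at 24 h and 15.1 to 16.4 RPKM in untreated cells. MXD3 overlaps RAB24 on the same strand and PRELID1 on the other. MAX, the partner of them all, had 13.9, 13.9 and 16.5 RPKM at 6 h and 15.9, 15.8 and 16.5 RPKM at 24 h (0.12, adjusted p = 0.51), and the sign turned under median-ratio scaling. Of 16 measured members, 3 rose and 2 fell, and 4 and 0 with equal sums, and 4 and 3 without 6 h replicate 3.

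Genes that MYC is known to drive are read beside all genes tested, of which 2.06% fell and 5.8% rose. Of 69 ribosome biogenesis factors, 4 fell and 0 rose, with a median of -0.06 against 0.15 for all genes. The 4 were RRP12 (-0.86), the snoRNP protein GAR1 (-0.60), PNO1 (-0.55) and LTV1 (-0.40). The number that fell was 22 without 6 h replicate 3, 13 with median-ratio scaling and 0 with equal sums, where the median of all genes was 0.42. Without 6 h replicate 3, 6.64% of all genes fell and 16.8% rose. RRP12 had 51.8, 48.1 and 29.3 RPKM at 6 h and 23.0, 22.5 and 22.8 RPKM at 24 h, so that 6 h replicate 3 lay nearest to the 24 h libraries. The 79 cytosolic ribosomal protein genes had a median of -0.05, between -0.41 and 0.23, with 0 calls with or without 6 h replicate 3. That library set the side of the median, which was 0.14 without it. At the lower dose 27 of the 79 fell and 0 rose between 6 and 24 h (median -0.24). Of the 69 biogenesis factors 32 fell and 2 rose there (median -0.20). Over all 14775 genes tested at the lower dose, 1456 fell and 4570 rose (median 0.16). A list of 10 genes taken from those whose promoters the study examined by chromatin immunoprecipitation, which is not all of them, lay between -0.33 (LYAR) and 0.42 (FBXO32) with 0 calls, and without 6 h replicate 3 there were 2 rises and 4 falls.

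ATF4 is the factor through which amino acid shortage and the integrated stress response act on amino acid synthesis genes. Of 19 measured synthesis and transport genes, 2 rose and 0 fell (median 0.29), and 7 rose and 2 fell without 6 h replicate 3 and 0 rose without any 1 of the 24 h libraries. ASNS, asparagine synthetase, rose from 27.4, 27.9 and 22.8 RPKM to 42.7, 43.5 and 41.3 RPKM (0.70, standard error 0.116, adjusted p = 0.0142), which left it below the 118 to 141 RPKM of untreated cells. SLC7A11, the cystine transporter, rose by 0.61 (adjusted p = 0.031). The untreated mean was nearer to 24 h than to 6 h for all 19, where over all genes tested the share was 66.8%. The stress regulators split, with DDIT4 and CHAC1 up by 2.16 and 1.10 and ATF3, PPP1R15A and ATF5 down by 3.17, 1.66 and 0.73 among 15 measured. Without 6 h replicate 3, 2 of them rose and 4 fell. CHAC1, a glutathione-degrading enzyme, had 0.943, 1.09 and 0.721 RPKM at 6 h, 2.23, 2.81 and 2.57 RPKM at 24 h and 12.3 to 16.5 RPKM in untreated cells. DDIT3 and TRIB3, at 0.15 and 0.12, did not pass. Of 20 cytosolic aminoacyl-tRNA synthetases, which charge tRNAs with amino acids, 5 rose and 0 fell (median 0.40, range 0.19 to 0.85), and 13 without 6 h replicate 3 but 0 without any 1 of the 24 h libraries and 1 with median-ratio scaling. AARS, the alanyl-tRNA synthetase, had 41.4, 40.9 and 24.7 RPKM at 6 h and 63.8, 62.7 and 63.1 RPKM at 24 h (0.85, adjusted p = 0.0373).

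The p53 target list held movement both ways, with 7 rises and 4 falls among 33. TP53INP1, a p53-induced autophagy and death regulator, rose from 1.51, 1.38 and 1.68 RPKM to 3.57, 3.5 and 3.76 RPKM (1.03, adjusted p = 0.00584), and SESN1, TP53I3, BBC3, DDB2, CDKN1A and CCNG1 rose by 0.78, 0.59, 0.59, 0.58, 0.56 and 0.51. The 4 that fell were the kinases PLK2 and PLK3 (-1.49 and -1.27) and the stress sensors GADD45B and GADD45A (-1.38 and -0.90), genes that growth factors and stress also induce as early genes. With median-ratio scaling there were 2 rises and 5 falls, without any 1 of the 24 h libraries 1 rise and 4 falls, and without 6 h replicate 3, 11 and 6.

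Sterol genes also split. Of 25, 6 rose and 3 fell, and without 24 h replicate 1 or 2, 1 rose and 0 fell. Without 6 h replicate 3 the counts were 9 and 3. INSIG1, which holds back the activation of SREBP, fell from 43.3, 46.1 and 49.9 RPKM to 28.4, 34.0 and 25.1 RPKM (-0.67, standard error 0.135, adjusted p = 0.0276), and the synthase HMGCS1 fell by 0.54. The synthesis enzymes LSS, FDFT1 and HSD17B7 rose by 0.91, 0.91 and 0.90. FDFT1, squalene synthase, had 30.4, 28.7 and 25.6 RPKM at 6 h and 51.2, 58.4 and 50.4 RPKM at 24 h, above the 35.5 to 38.0 RPKM of untreated cells.

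In the remaining lists few members passed. Over all genes tested 5.8% rose and 2.06% fell, and these shares were 16.8% and 6.64% without 6 h replicate 3. SAT1, the rate-limiting enzyme of polyamine breakdown, rose from 109, 119 and 134 RPKM to 166, 192 and 171 RPKM (0.55, standard error 0.126, adjusted p = 0.0396), did not pass after median-ratio scaling (adjusted p = 0.182), and had 603 to 667 RPKM in untreated cells. It was the only call among 17 polyamine genes, of which 4 rose and 0 fell without 6 h replicate 3. Heat shock genes had 2 rises among 19, HSPA1B (1.02, adjusted p = 0.0452) and HSPA4L (0.62, adjusted p = 0.0446), and HSPA1A, a near-identical copy of HSPA1B, was at 0.99 without a call. The heat shock count was 0 with median-ratio scaling, equal coding sums or the length trend removed, and 6 without 6 h replicate 3. NRF2 targets had 2 rises among 21 (SLC7A11 and GCLM), 0 with median-ratio scaling, and 8 rises and 2 falls without 6 h replicate 3. The WNT targets had 1 rise (EPHB3) and 2 falls (DKK1, -1.16, and MYC) among 14, and 1 and 5 without that library. Of 76 nuclear-encoded subunits of oxidative phosphorylation, 5 rose and 0 fell, led by NDUFS1 (0.80) and UQCRC2 (0.63), and 34 rose without 6 h replicate 3. Their median was 0.17, near the 0.15 of all genes.

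The mRNAs of the mitochondrial genome were lower at 24 h in their means, with a median of -0.97 over 13, but 0 passed the test. MT-CO1 had 5524, 4149 and 4803 RPKM at 6 h and 2576, 1710.5 and 3747 RPKM at 24 h (-0.91, adjusted p = 0.093), and MT-ND1 had 448, 214 and 425 RPKM and 146, 101 and 213 RPKM (-1.23, adjusted p = 0.0604). The groups did not overlap for 7 of the 13, and for 38.2% of all genes tested in either direction. In untreated cells MT-CO1 was at 793 to 1176 RPKM, lower than in all 6 treated libraries. Without 6 h replicate 3, 5 of the 13 fell, without 6 h replicate 2, 8 fell, and at the lower dose 11 fell and 1 rose.

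Outside the protein-coding genes, the largest falls were in U1 spliceosomal RNA genes. RNVU1-18, a variant U1 gene, went from 941, 2621 and 1097 RPKM to 114, 124 and 37.2 RPKM (-4.10, standard error 0.512, adjusted p = 0.00445), and RNU1-4 from 2027, 1685 and 3119 RPKM to 202, 274 and 359 RPKM (-3.02, standard error 0.278, adjusted p = 0.00113). U1 genes are near-identical copies, so the split of reads among them is uncertain. AC037198.1, a transcript inside THBS1 on the same strand, fell by 3.36, and its reads cannot be told from those of THBS1. Among the rises were LINC00640 and UPK1A-AS1, antisense to UPK1A, at 1.03 and 0.99. RN7SL1 and RN7SL2 had log2 differences of -1.12 and -0.94 that did not pass (adjusted p = 0.199 and 0.272).

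The lower dose gives a second series at the same times with no library in common. There, 6026 of 14775 genes (40.8%) passed between 6 and 24 h. Of the 1173 genes called at 10 μM, 1162 were tested at the lower dose, 1141 of them (98.2%) moved in the same direction, and 1017 were called there, 1015 with the same sign. These 1017 are 87.5% of the 1162 and 16.9% of the 6026. The median over all genes was above 0 at both doses, 0.15 at 10 μM and 0.16 at the lower dose. Such a shared shift adds to the agreement in sign, and the share of all genes with the same sign was not taken. Across the 14561 genes tested at both doses, which are not independent replicates, Pearson's r of the log2 differences was 0.722 and Spearman's rho 0.678. The list medians at the lower dose and at 10 μM were -1.86 and -2.02 for immediate early genes, 0.41 and 0.51 for mitosis genes, and -1.03 and -0.97 for mitochondrial mRNAs, and for histones they were 0.48 and 0.99. The summed histone level was 10059 to 11955 RPKM at 6 h with the lower dose, above the 7729 to 8492 RPKM at 10 μM, and 14911 to 16396 RPKM at 24 h. CYR61 had means of 119 and 2.92 RPKM at the lower dose, DBP 4.56 and 22.0 RPKM, and FOS 124 and 28.3 RPKM.

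**Figure D5:**
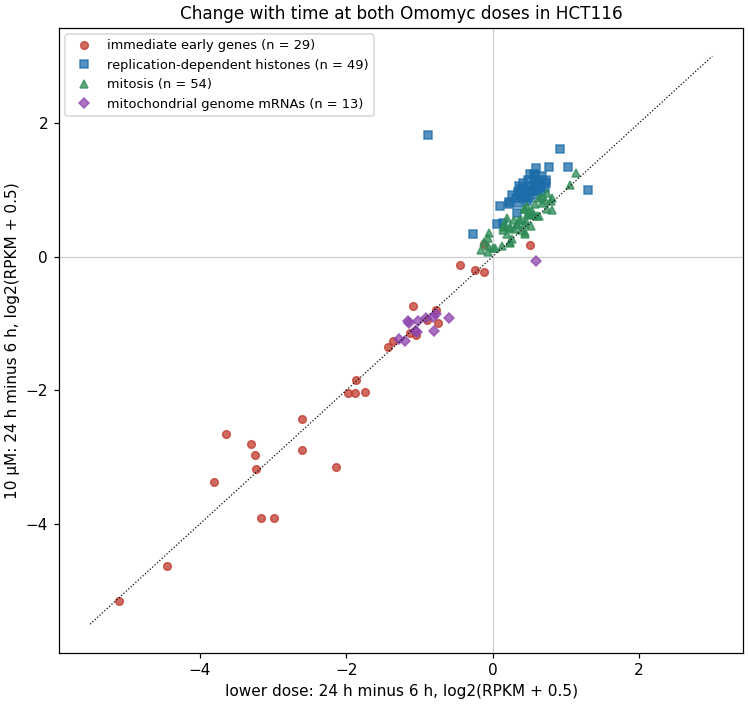
Difference of mean log2(RPKM + 0.5) between 24 and 6 h at the lower dose (x axis) and at 10 μM (y axis) for members of 4 gene lists, 1 point per gene, with a dotted line where both are equal. Most immediate early genes, mitosis genes and mitochondrial mRNAs lie near the line, most histones lie above it, and HIST2H4B is the blue square at the left, the other way at the lower dose.

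The difference between the doses in the change with time was tested directly. Of 14856 genes, 1 (0.00673%) passed, the pseudogene GUSBP9. It reached the filter on low values only through the 3 libraries at 24 h with 10 μM, so its call supports nothing, and 0 genes passed at a mean of at least 2 RPKM or without any 1 of those libraries. No histone gene passed, with a median interaction of 0.54 over 51 histones. The 95% intervals of the interaction were -0.67 to 0.57 for CYR61 and -0.30 to 0.48 for DBP, on the log2 scale. A p that misses the threshold does not show that the doses act alike. Without 6 h replicate 3, 28 genes passed, and 3 of them were histones (HIST2H4B, HIST1H2BM and HIST1H2BO, with interactions of 2.17, 0.70 and 0.76).

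The change with time in HCT116 was set against that in Ramos cells at 2.5 μM, a different dose and line. The sources used here do not say whether Ramos cells received ProteoJuice, so line, dose and delivery cannot be told apart. Of 15633 genes, 2251 (14.4%) passed the test of the interaction, 1584 with a higher change in HCT116. The median interaction over all genes was 0.13, and with median-ratio scaling 989 were higher and 1074 lower, so the balance rested on the scale. Of the 20 immediate early genes that passed the filter in both lines, 15 had a lower change in HCT116 and 0 a higher one, and of 47 histones and 54 mitosis genes that did, 46 and 29 had a higher change and 0 a lower one. The other 9 immediate early genes were under the filter in Ramos cells, so their interaction mostly restates the fall in HCT116. In Ramos cells the median change was -0.03 over 20 measured immediate early genes, -0.36 over 55 histones and 0.05 over 54 mitosis genes. CYR61 and CTGF were listed at 0 in all 6 Ramos libraries, so their interaction only restates the change in HCT116.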

How the data were processed

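RNA was extracted with RNeasy, depleted of ribosomal RNA and made into stranded libraries from total RNA. The authors deposited 1 table of RPKM values for 57992 genes in 30 libraries. RSEM is named in the submitters' processing notes. The aligner, genome build and annotation and the use of strand in counting are not given in the sources used here. RPKM values hold no read counts, so depth is unknown, no counting intervals are given, and no count model was run. All 30 value columns were matched to samples by title.

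Gene names and positions came from GENCODE release 29 on GRCh38, which matched 57388 of the 57992 identifiers. Genes with a mean of at least 0.5 RPKM over the libraries compared were tested as log2(RPKM + 0.5) with limma 3.58.1 in R 4.3.3 (linear model, empirical Bayes with trend) and Benjamini-Hochberg adjustment over all genes tested, at 0.05. Only the 6 libraries entered the main fit. Fold changes are on the log2(RPKM + 0.5) scale and understate changes of low genes. The interactions with dose and with line were fitted on 12 libraries each. Summaries and exact permutation tests used Python 3.11.15, pandas 2.3.3 and scipy 1.17.1. Tested on simulated data for the 24 h versus 6 h fit, 128 of 200 genes changed by 1 on the log2 scale were recovered among 14960 genes, with 1 false call. The simulated noise was independent between genes, so it held no library-wide shift or length trend like that of 6 h replicate 3.

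The libraries compared and the 26 gene lists were chosen with earlier results of these data known. Named genes were protein-coding with a mean of at least 2 RPKM, called with and without 6 h replicate 3 and with no overlap between groups: the 12 largest rises and falls, the 3 largest each way of other biotypes, up to 3 called members each way per list, and the 5 largest each way per interaction. MYC, MAX, ASNS, SAT1, ID3, EGR2 and CD274 were always named. Other members were named after their values were seen, and some genes that the rule names are not reported here. Promoters of 27305 genes came from RefSeq (GRCh38.p14). Same-numbered libraries of the 2 times were not paired, since their deviations correlated at -0.121, 0.0444 and -0.173. Alternatives were other scalings, filters, pseudocounts and thresholds, a replicate block, a fit on all 5 HCT116 groups and leaving out each library.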

Additional observations from a re-analysis of the deposited data

Results flagged for a closer look

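The change from 6 to 24 h differed between the doses, by a test of the difference itself, for 1 gene. This was the unprocessed pseudogene GUSBP9, with an interaction of 2.49 on the log2 scale (standard error 0.24, adjusted p = 0.00232). GUSBP9 was listed at 0, 0 and 0.0092 RPKM at 6 h with 10 μM and at 2.06, 2.10 and 3.03 RPKM at 24 h, and at most 0.0158 RPKM at either time with the lower dose. Since it reached the filter on low values only through those 3 libraries, the call supports nothing, and it was lost at a mean of at least 2 RPKM and without any 1 of them. It has near-identical relatives among which reads can be split.

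Between HCT116 and Ramos cells the change with time differed for 2251 genes by the test of the interaction, with the line, the dose and perhaps the delivery differing together. The 5 with the lowest values were CYR61 (-5.15), CTGF (-4.63), EGR1 (-4.24), FOSB (-4.06) and EGR2 (-3.83). CYR61 and CTGF were listed at 0 in all Ramos libraries compared, so their values only restate the fall in HCT116. EGR2 moved in opposite directions, from a mean of 3.60 to 0.258 RPKM in HCT116 and from 5.11 to 14.2 RPKM in Ramos cells. The 5 with the highest values were ALDOC (2.71), AL136295.1 (2.69), MXD3 (2.05), DBP (2.02) and NAPSA (1.99). ALDOC went from 23.3 to 14.4 RPKM in Ramos cells, MXD3 from 19.9 to 10.9 RPKM and NAPSA from 26.8 to 11.9 RPKM, and each rose in HCT116. AL136295.1, which overlaps TM9SF1 and CHMP4A on the same strand, did not pass in HCT116 alone (1.51, adjusted p = 0.11).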

How the results depend on the processing

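With 3 libraries a group, the number of calls moved with most settings. Against 1173 calls (865 higher, 308 lower), 4297 (3479 and 818) were made when all 5 HCT116 groups shared 1 estimate of the spread, 296 (169 and 127) without a filter on low values, 188 (83 and 105) at an adjusted p of 0.01, and 238 (98 and 140) with a change of at least 1. Scaling gave 509 with equal coding sums, 241 of them higher, 1396 higher and 119 lower with equal sums, 410 and 561 with median-ratio scaling, and 513 and 519 with quantile normalization. Leaving out 1 library gave 161 to 3506 calls, 71 to 2514 higher and 90 to 992 lower. The numbers of the replicates did not pair the libraries, and a replicate block gave 256 calls (116 and 140). Settings chosen after seeing the data were removal of the length trend, with 460 higher and 590 lower, and the same with 6 h replicate 3 left out, with 2965 (1335 and 1630). Also without that library, equal sums gave 5562 (5005 and 557), median-ratio scaling 2911, 1629 of them lower, and quantile normalization 2972 (1600 and 1372). The cause was not tested. The 1 call of the dose interaction became 0 at a mean of at least 2 RPKM, with 0 higher, and 0 with a pseudocount of 0.1, and 4 (2 and 2) without a filter. Leaving out 1 library gave 0 to 28 calls, 0 to 14 higher and 0 to 14 lower. The 2251 calls of the line interaction became 1487 with equal sums (218 lower), and 989 were higher and 1074 lower with median-ratio scaling, and 1010 lower with quantile normalization. Leaving out 1 library gave 1371 to 3827 calls, 913 to 2561 higher and 429 to 1266 lower. The 4 uncalled genes that changed sign follow. CD274 was at 0.14 with equal sums and at 0.0477, 0.0159 and 0.0172 without 24 h replicate 1, 24 h replicate 2 or 6 h replicate 1 (range -0.275 to 0.0477 with 1 library left out), ID3 at 0.10 with equal sums, MAX at -0.0439 with the length trend removed and -0.0490 with median-ratio scaling, and RN7SL2 at 0.0358 with quantile normalization without 6 h replicate 3. Of 84 named and called genes, 0 changed sign under any setting, and 70 passed with median-ratio scaling, 53 with the block and 41 to 43 without any 1 of the 24 h libraries. The groups of every called gene did not overlap, so leaving out a library could not turn its sign.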
